A study of Mus musculus with 6 samples.

Results

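A set of 9 genes used as markers or regulators of limbal stem and progenitor cells was followed by name in bulk RNA sequencing of mouse cornea: Gpha2, Ifitm3, Cd63, Trp63, Sox9, Bmi1, Lrig1, Abcg2 and Abcb5. These are 9 of 54446 gene rows of the expression table, and their symbols were matched from the Ensembl identifiers. The list was given by name, and Gpha2 was taken into it because its values were low in both libraries of wounded corneas given RNase III. The values of Gpha2 are therefore described and not tested. The corneas came from wild-type C57BL/6 mice aged 6 weeks. Each of 3 groups had 2 samples: corneas with no wound, corneas with a wound, and corneas with a wound whose eyes were also given RNase III, an enzyme that cuts double-stranded RNA, by an injection beneath the conjunctiva. The wound was surgical and took away part of the limbus together with corneal epithelium and some stroma. The labels give neither the time after wounding nor a control injection, and they do not say whether the 2 samples of a group came from separate or pooled animals, so p-values measure only the spread between these samples.

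The corneal epithelium is renewed from the limbus, the rim where cornea meets conjunctiva, by basal cells that divide slowly or in reserve and send progeny towards the centre. In mouse, Gpha2, Ifitm3 and Cd63 have been used to mark a quiet population of the outer limbus, and p63 (Trp63), Sox9, Bmi1, Lrig1 and the transporters Abcg2 and Abcb5 have been used as markers or regulators of limbal or other epithelial stem cells. Most of these genes are also active in other cells, so the level in a whole cornea is not a count of stem cells.

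Values are TPM, the abundance of a gene's transcripts per transcript length, scaled to a fixed total in each library. In a bulk sample, fewer cells of a type and less RNA per cell cannot be told apart, and here the wound itself removed limbal tissue. Of the 9 genes, 8 passed the filter on low values (at least 1 TPM in at least 2 samples), and Abcb5 did not. Tests were made with limma on log2(TPM + 1) with adjustment over all 14748 genes tested, and the threshold was an adjusted p under 0.05. The median difference of all genes was -0.26 for wounded against unwounded corneas and -0.01 after median-of-ratios scaling, so differences of this comparison can be read against that shift. Keratins of corneal epithelium were abundant in every library. The differentiated epithelial keratin Krt12 had between 11217 and 19636 TPM, and the basal keratin Krt5 between 8824 and 11777 TPM. The share of each tissue was not estimated. Markers of other tissues differed between libraries. Summed TPM of 8 stromal genes were 6778 and 5278 in unwounded, 3502 and 3949 in wounded and 930.3 and 1645 in RNase III corneas. Summed TPM of 5 pigment cell genes were 1415 and 1812, 445.8 and 1030, and 106.6 and 602.1 in the same order. Those of 8 leukocyte genes were 253.9 and 181.4, 8846 and 731.0, and 1349 and 1529. Wounded replicate 1 carried the 8846 TPM, mostly from S100a8 and S100a9, at 2051 and 6352 TPM. In RNase III replicate 1 these genes had 286.6 and 901.2 of the 1349 TPM. The common leukocyte gene Ptprc had 1.23 TPM there, within its unwounded values of 1.61 and 0.74 TPM, and 13.4 TPM in wounded replicate 1. RNase III replicate 2 had 2948 TPM over 6 lens genes where the other libraries had 240.1 to 655.6. None of the markers in these lists was at 0 in every library. RNase III replicate 1 had the fewest genes above 0, 16751, where the other libraries had 19455 to 21033. What this contributes to the values of that library was not tested.

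In the wound comparison Ifitm3 and Sox9 rose and Lrig1 and Bmi1 fell, 4 of the 7 genes tested, where 15.9% of all genes were called in either direction, 6.12% higher and 9.83% lower. Over all genes 902 were higher and 1450 lower, and with median-of-ratios scaling 1525 were higher and 1001 lower. Trp63, Abcg2 and Cd63 did not pass. Against unwounded corneas, RNase III corneas had higher Ifitm3 and Sox9, 2 of 7, where 9.3% of all genes were called, 4.72% higher and 4.58% lower. With RNase III set against the wound alone, none of the 7 passed, and of all genes 0% were called by limma, 1838 of 14748 having an unadjusted p under 0.05 and 1 gene being called with a pseudocount of 0.1. Libraries of wounded and unwounded corneas did not overlap for any of the 7, with 3 higher and 4 lower, where over all genes this held for 72.1%, 25.3% higher and 46.8% lower. For RNase III against unwounded corneas it held for 5 of 7, 2 higher and 3 lower, against 66% of all genes, 26.3% higher and 39.7% lower. The smallest unadjusted p among the 7 in the comparison of RNase III with wounded corneas was 0.0652, for Cd63. Both comparisons with unwounded corneas share the unwounded libraries, and without either of these libraries none of the 7 was called in either comparison.

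**Figure D1:**
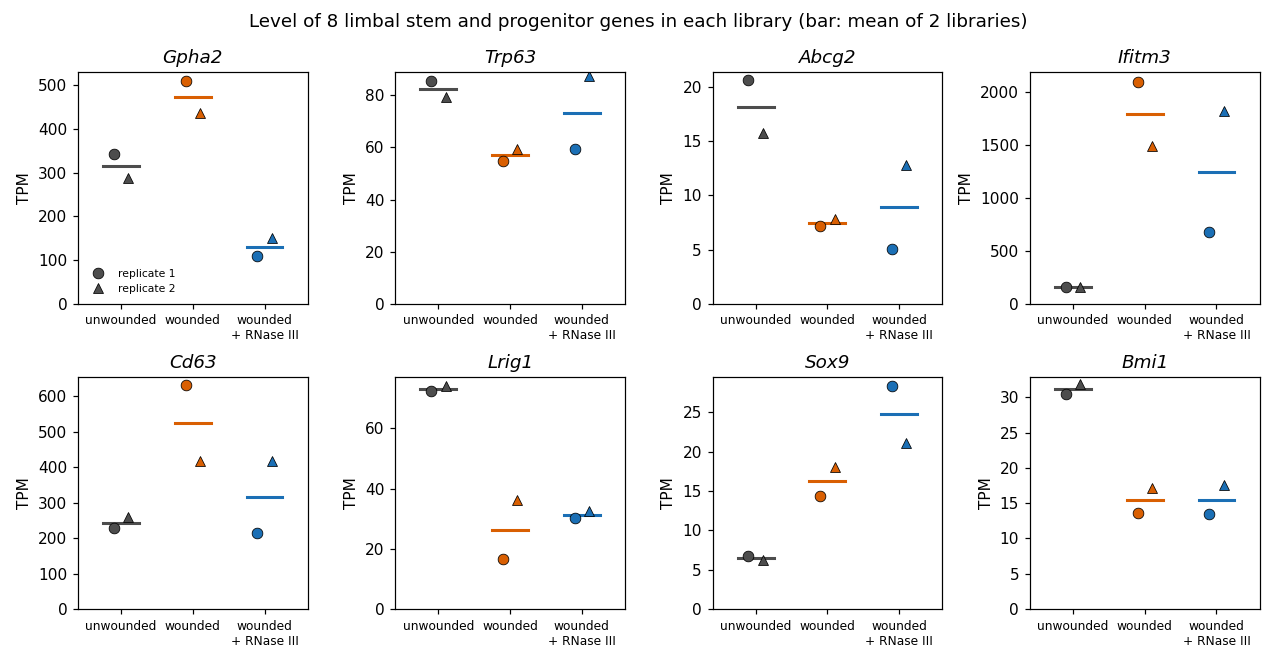
TPM of the 8 genes above 0 in each library, by group, with circles for replicate 1, triangles for replicate 2 and a bar at the mean of both; each axis starts at 0. Gpha2 is lowest in both RNase III libraries (109 and 151 TPM), Ifitm3 is at 157 and 159 TPM in unwounded corneas and at 678 TPM or more elsewhere, and Lrig1 and Bmi1 are highest in both unwounded libraries.

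Gpha2 (ENSMUSG00000024784, chromosome 19, 6226380 to 6227768, plus strand, GRCm38) encodes the alpha subunit of thyrostimulin, a secreted glycoprotein hormone. It had 344 and 288 TPM without a wound, 511 and 437 TPM after wounding and 109 and 151 TPM after wounding with RNase III. The 3 groups did not overlap: both wounded libraries were highest and both RNase III libraries lowest, the latter being what the gene was chosen for. The ratio of group means was 1.5 for wounded to unwounded, 0.274 for RNase III to wounded and 0.411 for RNase III to unwounded corneas. Over all genes, the libraries of RNase III and wounded corneas did not overlap for 40.2%, lower in RNase III for 14.3%, and nothing is read from this for a gene chosen by that pattern. In unwounded replicates 1 and 2 Gpha2 ranked 352 and 408 from the top of all genes, in wounded replicates 286 and 322, and in RNase III replicates 1159 and 925. Its level in unwounded corneas was thus above that of 98.1% or more of the genes detected there. On the log2(TPM + 1) scale the difference between RNase III and wounded corneas was -1.88, and it lay between -2.11 and -1.64 over the alternatives tried. The gene was chosen for low values in RNase III corneas, so nothing is read from the sign or range of this difference. The difference of wounded from unwounded corneas was 0.59, and 0.88 with median-of-ratios scaling.

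The partner and receptor genes of this hormone were near 0. Gphb5, the beta subunit with which the Gpha2 product forms thyrostimulin, had 0.56 and 1.77 TPM without a wound, 0.09 and 0 TPM after wounding and 0 and 0.05 TPM after wounding with RNase III. Tshr, the thyrotropin receptor that thyrostimulin can activate, had 0.33 and 0.66 TPM, 0.32 and 0.29 TPM, and 0.12 and 0.10 TPM in the same order. Cga, the alpha subunit of the other glycoprotein hormones, was listed at 0 in all 6 libraries, as were Tshb and Fshr, and Lhcgr had 0.03 TPM in 1 library. None of these 6 genes passed the filter.

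Ifitm3 (ENSMUSG00000025492, chromosome 7, 141009586 to 141010770, minus strand) encodes a membrane protein that restricts the entry of viruses and is induced by interferon. It had 157 and 159 TPM without a wound, 2091 and 1493 TPM after wounding and 678 and 1816 TPM after wounding with RNase III. All 4 wounded libraries were above both unwounded ones, and the wounded and RNase III groups overlapped. Ifitm3 rose by 3.47 with the wound (SE 0.45, limma adjusted p = 0.0122) and was 2.80 higher in RNase III than in unwounded corneas (SE 0.45, adjusted p = 0.0253). The difference between RNase III and wounded corneas was -0.67 (95% interval -1.74 to 0.40, adjusted p = 0.559), and 0.04 without RNase III replicate 1. The rise with the wound was 3.23 to 3.48 without unwounded replicate 1, unwounded replicate 2 or wounded replicate 1, but its call was then lost (adjusted p = 0.0964, 0.118 and 0.0857). The call against unwounded corneas was lost without unwounded replicate 1 or 2 (adjusted p = 0.119 and 0.182) and without a filter (0.0745).

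Ifitm3 has close relatives on the same chromosome, of which Ifitm2 and Ifitm6 also rose with the wound. Ifitm2 rose with the wound from 496 and 364 TPM to 1725 and 826 TPM, by 1.49 (SE 0.37, adjusted p = 0.0421), and had 623 and 751 TPM with RNase III. Ifitm6 rose from 0.31 and 0.52 TPM to 43.8 and 12.2 TPM, by 4.11 (SE 0.95, adjusted p = 0.0374), and had 0.49 and 9.26 TPM with RNase III. Ifitm1 had the highest level of the family in unwounded corneas, 2420 and 2109 TPM, and stood at 1237 and 1731 TPM after the wound and 1073 and 1769 TPM with RNase III. Its groups did not overlap between unwounded and wounded corneas, with lower values after the wound, as for 46.8% of all genes. The difference of -0.63 did not pass (adjusted p = 0.188). Without wounded replicate 1 or either unwounded library no relative of Ifitm3 was called with the wound. Of 4 relatives tested 2 rose with the wound, where 6.12% of all genes were higher. In RNase III against unwounded corneas none of the 4 was called, where 9.3% of all genes were. Of the distinct stretches of 50 bases in Ifitm3 transcripts 10.02% occur in transcripts of other genes, 3.18% in Ifitm2, so a small part of their reads could be assigned to either gene.

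A list of 10 interferon-stimulated genes outside the family was set beside Ifitm3. Of these, 6 rose with the wound and none fell, with a median of 3.03 against -0.26 for all genes; Ifit1 rose by 4.12, Rsad2 by 3.62, Bst2 by 3.41 and Oas2 by 3.39. Of all genes 6.12% were called higher with the wound. In RNase III against unwounded corneas 1 of 10 was called, Ifit1, at 2.69 (adjusted p = 0.0419), where 4.72% of all genes were higher. Their summed TPM were 380.3 and 350.7 in unwounded, 1553 and 2952 in wounded and 684.7 and 2210 in RNase III corneas. As for Ifitm3, RNase III replicate 1 was the lowest of the 4 wounded libraries, while among wounded corneas replicate 2 was higher for this sum and replicate 1 for Ifitm3. Without wounded replicate 1 none of the 10 was called, at a median of 3.55. None was called without unwounded replicate 1 or 2 either, at medians of 3.07 and 2.98, and without wounded replicate 2, 1 was called, at a median of 2.52.

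**Figure D2:**
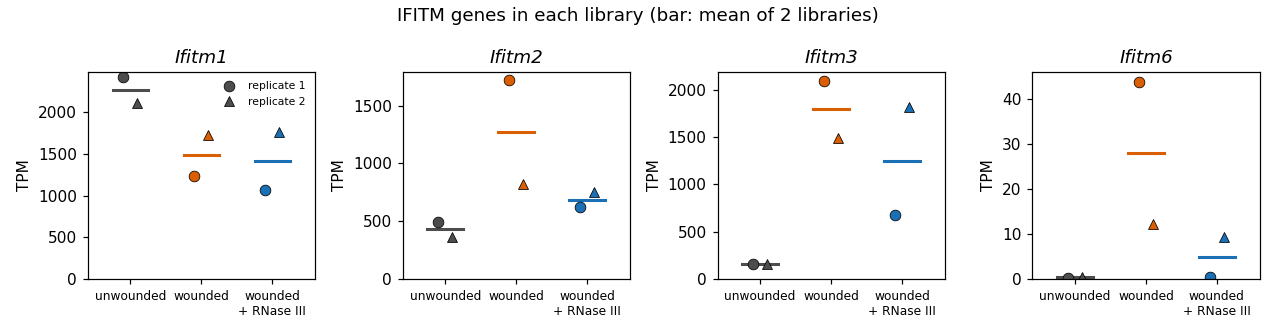
TPM of 4 IFITM genes in each library, by group, with circles for replicate 1, triangles for replicate 2 and a bar at the mean of both; each axis starts at 0. Ifitm2, Ifitm3 and Ifitm6 are higher in both wounded libraries than in both unwounded ones. Ifitm1 is lower, at 1237 and 1731 against 2420 and 2109 TPM, a difference that did not pass the threshold.

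Promoter windows of Gpha2, Ifitm3 and 2 relatives of Ifitm3 are shown because Ifitm3 and Ifitm2 rose with the wound and Ifitm1 did not, and Gpha2 is set beside them. Each runs from 250 bases before to 50 bases after a transcription start of RefSeq, on GRCm38.p6. They lie at chr19:6226151-6226450 (plus strand), chr7:141010695-141010994 (minus strand), chr7:140955912-140956211 (minus strand) and chr7:140967826-140968125 (plus strand) for Gpha2, Ifitm3, Ifitm2 and Ifitm1. Capitals mark each match to GAAA, any 2 bases and GAAA again, a short form of the interferon-stimulated response element, searched on both strands.
Gpha2: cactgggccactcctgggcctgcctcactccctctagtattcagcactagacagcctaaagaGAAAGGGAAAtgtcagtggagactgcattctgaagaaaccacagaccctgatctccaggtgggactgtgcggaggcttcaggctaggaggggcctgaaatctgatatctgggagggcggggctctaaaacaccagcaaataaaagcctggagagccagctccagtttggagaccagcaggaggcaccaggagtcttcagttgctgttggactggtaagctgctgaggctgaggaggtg
Ifitm3: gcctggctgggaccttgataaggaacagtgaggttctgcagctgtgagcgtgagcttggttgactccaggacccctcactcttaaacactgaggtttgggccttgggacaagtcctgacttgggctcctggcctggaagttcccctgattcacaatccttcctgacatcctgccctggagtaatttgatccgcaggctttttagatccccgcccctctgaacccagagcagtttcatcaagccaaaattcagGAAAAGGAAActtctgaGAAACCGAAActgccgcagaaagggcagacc
Ifitm2: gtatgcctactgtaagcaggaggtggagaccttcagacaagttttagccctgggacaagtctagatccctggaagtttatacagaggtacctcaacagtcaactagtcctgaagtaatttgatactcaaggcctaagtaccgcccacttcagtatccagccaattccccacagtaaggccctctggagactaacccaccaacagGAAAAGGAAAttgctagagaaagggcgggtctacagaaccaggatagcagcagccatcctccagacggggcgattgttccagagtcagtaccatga
Ifitm1: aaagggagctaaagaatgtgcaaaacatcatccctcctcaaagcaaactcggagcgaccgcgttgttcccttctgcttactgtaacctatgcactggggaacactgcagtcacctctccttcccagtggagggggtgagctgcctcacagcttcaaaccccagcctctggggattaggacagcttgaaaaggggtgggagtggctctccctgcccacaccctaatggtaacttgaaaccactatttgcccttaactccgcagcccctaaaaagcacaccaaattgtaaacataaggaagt
The Ifitm3 window held 2 matches, GAAAAGGAAA from base 3 and GAAACCGAAA from base 20 after the start, counting the start as base 1. The Ifitm2 window held 1 match, GAAAAGGAAA, at -46, and the Gpha2 window 1 match, GAAAGGGAAA, at -188. The Ifitm1 window held none. The window of Ifitm6, which rose with the wound by 4.11 and is not shown, held none either. The windows shown were picked by response, so whether a match goes with a rise was not tested. Among all 32851 promoter windows a match was held by 3.44%. A window was found for 7 of the 9 genes, 9 windows in all since Abcg2 has 3 starts, and those of Abcg2, Abcb5, Cd63, Lrig1 and Bmi1 held none. The AP-1 motif TGANTCA, found in 7.81% of all windows, was matched only by Ifitm3 among the 7 genes, and so was the STAT motif TTCNNNGAA, found in 8.30%, whose match overlaps the second response element. A match describes the letters of the window and not a bound site.

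Cd63 (ENSMUSG00000025351, chromosome 10, 128900989 to 128912822, plus strand) encodes a tetraspanin of late endosomes and exosomes that many cell types make, leukocyte granules included. It had 229 and 259 TPM without a wound, 633 and 417.6 TPM after wounding and 214 and 417.7 TPM after wounding with RNase III. Both wounded libraries were above both unwounded ones, and RNase III replicate 1 was lowest of all 6. The difference with the wound was 1.08 (95% interval 0.23 to 1.92, adjusted p = 0.0802), which missed the threshold; it passed with median-of-ratios scaling (1.37, adjusted p = 0.0490), with only the 2 groups in the fit (0.0408) and without RNase III replicate 1 or 2 (0.0404 and 0.0401). RNase III corneas differed from wounded ones by -0.78 (95% interval -1.63 to 0.07, adjusted p = 0.423) and from unwounded ones by 0.29 (adjusted p = 0.581), the latter being -0.19 without RNase III replicate 2. Wounded replicate 1, the library highest in Cd63, was also the highest in the summed leukocyte genes, a sum made mostly of S100a8 and S100a9 there. It was also the highest in Ptprc, at 13.4 TPM. The part of leukocytes in this result was not tested. Of the stretches of 50 bases in Cd63 transcripts 11.1% occur elsewhere, mostly in a pseudogene that had between 1.31 and 2.58 TPM.

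Of 14 other tetraspanins 2 rose with the wound and 1 fell, where 6.12% of all genes were higher and 9.83% lower. Without wounded replicate 1 or either unwounded library none of the 14 was called. The leukocyte tetraspanin Cd53 rose from 3.84 and 2.46 TPM to 128.5 and 30.2 TPM, by 3.96 (adjusted p = 0.0207), and Tspan4 by 1.25 (adjusted p = 0.0315). Cd82 fell by 1.32, from 235.3 and 235.5 TPM to 69.9 and 125.0 TPM (adjusted p = 0.0325). Both Cd53 and Tspan4 were also called higher in RNase III than in unwounded corneas, by 2.82 and 1.13 (adjusted p = 0.0497 and 0.0488). The list median was -0.09 with the wound and 0.20 with median-of-ratios scaling, so its sign depended on the scaling. Cd9 and Cd151, abundant epithelial tetraspanins, had between 467.6 and 638.5 TPM and between 135.3 and 180.8 TPM over all libraries.

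Trp63 (ENSMUSG00000022510, chromosome 16, 25683763 to 25892102, plus strand) encodes p63, the transcription factor that maintains basal cells of stratified epithelia. It had 85.4 and 79.3 TPM without a wound, 55.0 and 59.5 TPM after wounding and 59.4 and 87.4 TPM after wounding with RNase III. The wounded libraries were below the unwounded ones, whereas the RNase III libraries spanned both. The difference was -0.52 with the wound (95% interval -1.06 to 0.03, adjusted p = 0.151), 0.33 between both wounded groups (95% interval -0.21 to 0.87, adjusted p = 0.572) and -0.19 when RNase III corneas were set against unwounded ones (95% interval -0.73 to 0.35, adjusted p = 0.581). With median-of-ratios scaling the wound difference was -0.23. The table gives 1 value per gene, so the isoforms of p63 were not separated.

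Genes tied to p63 were taken from a list. Of 12 relatives, partners and targets of p63 tested, 2 rose with the wound and none fell. Their median was -0.33, with 4 all higher and 6 all lower in the wounded libraries. For all genes the median was -0.26, with 25.3% all higher and 46.8% all lower, and 6.12% were called higher and 9.83% lower. Itga3, an integrin chain that binds laminin, rose by 1.93 (adjusted p = 0.0141) and the epithelial 14-3-3 gene Sfn by 1.79 (adjusted p = 0.0103). In RNase III against unwounded corneas Itga3 rose by 2.58 (adjusted p = 0.0101), Sfn by 1.55 (0.0168) and Trp53, the gene of p53, by 1.18 (0.0386), while Dlx3, a homeobox gene of the differentiating layers, fell by 2.12 (0.0317). In that comparison 4.72% of all genes were called higher and 4.58% lower. Dlx3 had 4.10 and 3.46 TPM without a wound, 0.31 and 1.37 TPM after wounding and 0 and 0.21 TPM after wounding with RNase III. Trp73, the p63 relative that encodes p73, stayed between 0.23 and 1.49 TPM.

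Sox9 (ENSMUSG00000000567, chromosome 11, 112782224 to 112787760, plus strand) encodes a transcription factor of progenitor cells in several epithelia. It had 6.73 and 6.22 TPM without a wound, 14.4 and 18.1 TPM after wounding and 28.3 and 21.1 TPM after wounding with RNase III. The 3 groups did not overlap, and Sox9 was the single gene of the 7 tested whose RNase III libraries lay apart from the wounded ones. It rose by 1.20 with the wound (SE 0.26, adjusted p = 0.0327) and was 1.77 higher in RNase III than in unwounded corneas (SE 0.26, adjusted p = 0.0219). Set against the wound alone, the difference of 0.57 did not pass (95% interval -0.05 to 1.19, adjusted p = 0.425), and 25.9% of all genes had both RNase III libraries above both wounded ones. The wound call was lost without unwounded replicate 1 or 2 (adjusted p = 0.155 and 0.226), wounded replicate 1 or 2 (0.119 and 0.0910) and without a filter (0.0690), at differences of 1.04 to 1.35. The call against unwounded corneas was lost without unwounded replicate 1 or 2 (0.117 and 0.185) and without a filter (0.0613).

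Among 10 other SOX genes tested none rose and 1 fell with the wound, Sox21, from 9.89 and 6.26 TPM to 1.02 and 1.79 TPM (difference -1.91, adjusted p = 0.0249). Of all genes 6.12% were higher with the wound and 9.83% lower. The call of Sox21 was lost without wounded replicate 1 or either unwounded library. None of the 10 was called in RNase III against unwounded corneas, where 9.3% of all genes were called. Sox7, named after its values were seen, had the same order of group means as Sox9, with 9.44 and 7.48, 11.7 and 13.8, and 10.8 and 18.2 TPM. Sox15, the most abundant of them, had 75.3 and 58.6 TPM without a wound, 37.0 and 82.9 TPM after wounding and 91.2 and 55.0 TPM after wounding with RNase III. Sox10, a marker of melanocytes and Schwann cells, had 3.43 and 2.80 TPM, 2.20 and 1.46 TPM, and 0 and 1.05 TPM.

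Bmi1 (ENSMUSG00000026739, chromosome 2, 18677018 to 18686629, plus strand) encodes a subunit of Polycomb repressive complex 1, which keeps chromatin silent and supports self-renewal. It had 30.4 and 31.9 TPM without a wound, 13.6 and 17.2 TPM after wounding and 13.4 and 17.6 TPM after wounding with RNase III. Both unwounded libraries were above the other 4, and the wounded and RNase III groups overlapped. Bmi1 fell by 0.98 with the wound (SE 0.24, adjusted p = 0.0420). In RNase III against unwounded corneas the difference was -0.98 and missed the threshold (SE 0.24, adjusted p = 0.0530), though it passed with median-of-ratios scaling (-0.81, adjusted p = 0.0399). RNase III and wounded corneas differed by 0.01 (95% interval -0.57 to 0.58, adjusted p = 0.995), with either sign over the alternatives. The wound call was lost without any one of the unwounded or wounded libraries (adjusted p between 0.0598 and 0.264), without a filter (0.0775) and without a trend (0.0547), at differences of -1.14 to -0.82. Of the stretches of 50 bases in Bmi1 transcripts 16.7% occur elsewhere, almost all in a pseudogene that was listed at 0 in all 6 libraries.

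Other genes of the complex were set beside Bmi1. Of 15 tested 5 fell with the wound, none rose and 10 did not pass, where 9.83% of all genes were lower, with a median of -0.62 against -0.26 for all genes. The chromobox gene Cbx7, which reads the histone mark of Polycomb, fell by 2.10 (adjusted p = 0.0122), and the polyhomeotic genes Phc3 and Phc1 by 1.30 (0.0469) and 1.16 (0.0463). Rnf2, the ubiquitin ligase subunit, fell by 1.14 (0.0329) and was named after its value was seen. Cbx7 had 23.4 and 22.9 TPM without a wound, 3.91 and 5.44 TPM after wounding and 7.19 and 8.79 TPM after wounding with RNase III. In 4 of the 15 both wounded libraries were above both unwounded ones, as for 25.3% of all genes. Phc2 was among the 4, at 91.2 and 96.0 against 75.7 and 76.5 TPM. In RNase III against unwounded corneas 2 of 15 fell, Cbx7 by 1.43 (0.0325) and Ring1, a ubiquitin ligase subunit, by 1.08 (0.0331). There 4.58% of all genes were lower. With median-of-ratios scaling 3 fell with the wound, and without wounded replicate 1 or either unwounded library none did.

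Lrig1 (ENSMUSG00000030029, chromosome 6, 94604529 to 94700158, minus strand) encodes a membrane protein that restrains receptors of the epidermal growth factor family and marks quiet epithelial stem cells. It had 72.3 and 74.2 TPM without a wound, 16.5 and 36.2 TPM after wounding and 30.3 and 32.4 TPM after wounding with RNase III. Both unwounded libraries were above the other 4, and wounded replicate 1 was lowest. Lrig1 fell by 1.54 with the wound (SE 0.35, adjusted p = 0.0352), the largest fall among the 7 genes tested. In RNase III against unwounded corneas the difference was -1.20 and missed the threshold (95% interval -2.03 to -0.37, adjusted p = 0.0722), though it passed with only the 2 groups in the fit (0.0268) and without wounded replicate 1 or 2 (0.0284 and 0.0298). RNase III and wounded corneas differed by 0.34 (95% interval -0.49 to 1.17, adjusted p = 0.702), and by -0.20 without wounded replicate 1. Without wounded replicate 1 the wound difference was -0.998 and its call was lost (0.101). The call was also lost without unwounded replicate 1 or 2 (0.155 and 0.219), without a filter (0.0870) and without a trend (0.0507). Lrig3 and Lrig2, its relatives, had lower values in both wounded libraries than in both unwounded ones, with differences of -0.94 and -0.77 that did not pass (0.135 and 0.115). Lrig1 overlaps the antisense gene Slc25a26 over 144 exonic bases, and Slc25a26 stood between 2.51 and 5.90 TPM.

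Abcg2 (ENSMUSG00000029802, chromosome 6, 58584523 to 58695676, plus strand) encodes the efflux pump behind the dye-excluding side population of stem cells. It had 20.6 and 15.8 TPM without a wound, 7.13 and 7.79 TPM after wounding and 5.02 and 12.8 TPM after wounding with RNase III. Both unwounded libraries were above the other 4. The difference was -1.17 with the wound (95% interval -2.16 to -0.18, adjusted p = 0.0967) and -1.06 when RNase III corneas were set against unwounded ones (95% interval -2.06 to -0.07, adjusted p = 0.127), and neither passed. The wound difference passed with only the 2 groups in the fit (0.0325) and without RNase III replicate 1 or 2 (0.0324 and 0.0334). RNase III and wounded corneas differed by 0.11 (95% interval -0.89 to 1.10, adjusted p = 0.933). Abcg2 is also made by vessel walls, and the summed TPM of 6 vessel genes were 40.1 and 41.8 in unwounded, 53.1 and 30.1 in wounded and 8.21 and 25.6 in RNase III corneas; their part in the level of Abcg2 was not tested.

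Abcb5 (ENSMUSG00000072791, chromosome 12, 118867824 to 118966421, minus strand), a transporter gene used to isolate limbal stem cells, was listed at 0 TPM in all 6 libraries. It gives no comparison, and with no read depth in the table no detection limit can be set. Among 12 other transporters of the same subfamilies 1 fell with the wound and none rose: Abcg1, a cholesterol exporter, from 30.2 and 32.7 TPM to 4.24 and 11.4 TPM (difference -2.01, adjusted p = 0.0312), and it had 11.7 and 15.7 TPM with RNase III. With the wound 6.12% of all genes were called higher and 9.83% lower. Tap1 and Tap2, the peptide pumps of antigen presentation, had differences of 1.03 and 0.74 with the wound that did not pass (0.189 and 0.214).

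**Figure D3:**
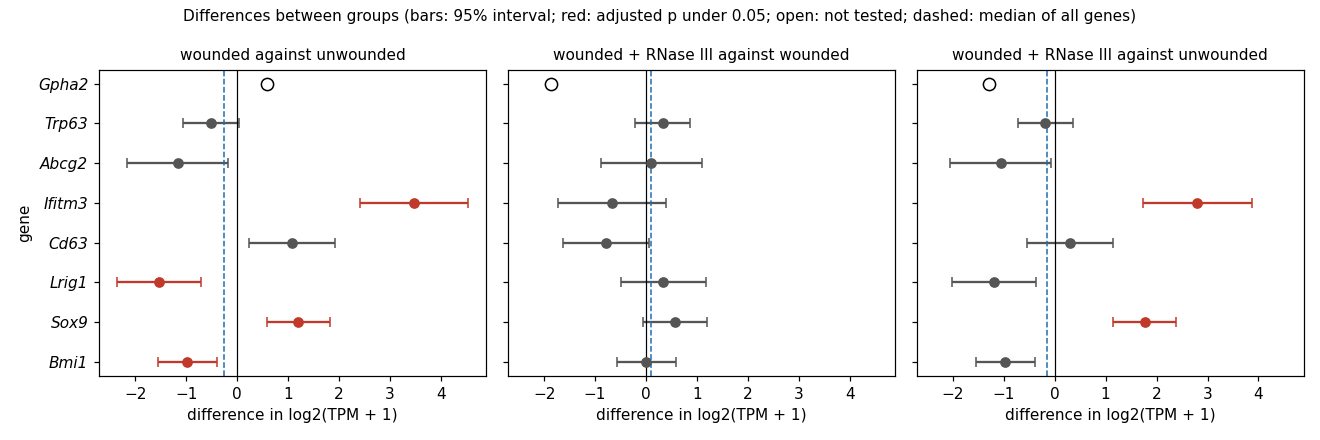
Differences in log2(TPM + 1) between groups for 8 genes in the 3 comparisons, with 95% intervals from limma, red where the adjusted p is under 0.05, an open circle for Gpha2, which was not tested, and a dashed line at the median of all genes. Ifitm3 and Sox9 lie to the right in both comparisons with unwounded corneas, Lrig1 and Bmi1 to the left, and all 7 tested intervals of RNase III against wounded corneas include 0.

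The 8 genes fell into more than 1 order of levels. Lrig1, Bmi1 and Abcg2 were highest in unwounded corneas, with overlap between the other groups. Ifitm3 and Cd63 had their highest mean in wounded corneas and overlapped there with RNase III corneas. Sox9 had its highest level in RNase III corneas, Gpha2 in wounded corneas, and Trp63 overlapped between unwounded and RNase III corneas. Of the 3 genes used as markers of the outer limbus, Gpha2, Ifitm3 and Cd63 all had higher values in wounded than in unwounded corneas, and with RNase III Ifitm3 was above unwounded corneas and Cd63 on both sides of them. Gpha2 was below them, which follows from how it was chosen, and its correlations include the same values. Over the 6 libraries, which share depth and composition, the Pearson correlation of log2(TPM + 1) was 0.02 between Gpha2 and Ifitm3, 0.52 between Gpha2 and Cd63, 0.80 between Ifitm3 and Cd63, and 0.93 between Lrig1 and Bmi1.

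Levels were also set against epithelial content, since markers of other tissues differed between libraries. The mean log2(TPM + 1) of 9 genes shared by epithelial cells was 6.34 and 6.26 in unwounded, 6.05 and 6.13 in wounded and 6.65 and 6.54 in RNase III corneas. These 9 genes did not all move alike, as Epcam rose with the wound by 1.38 (adjusted p = 0.0246) and Prss8 and Esrp1 fell by 2.01 and 0.93 (0.0104 and 0.0380). Relative to that mean, Gpha2 stood at 2.09 and 1.92 log2 units in unwounded, 2.95 and 2.64 in wounded and 0.13 and 0.71 in RNase III corneas. These values include those it was chosen for, and nothing is read from them. Trp63 stood at 0.09 and 0.07, -0.25 and -0.21, and -0.73 and -0.07 in the same order, so that on this scale all 4 wounded libraries were below both unwounded ones. Sox9 stood at -3.39 and -3.41, -2.11 and -1.88, and -1.77 and -2.07, where wounded and RNase III corneas overlapped.

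**Figure D4:**
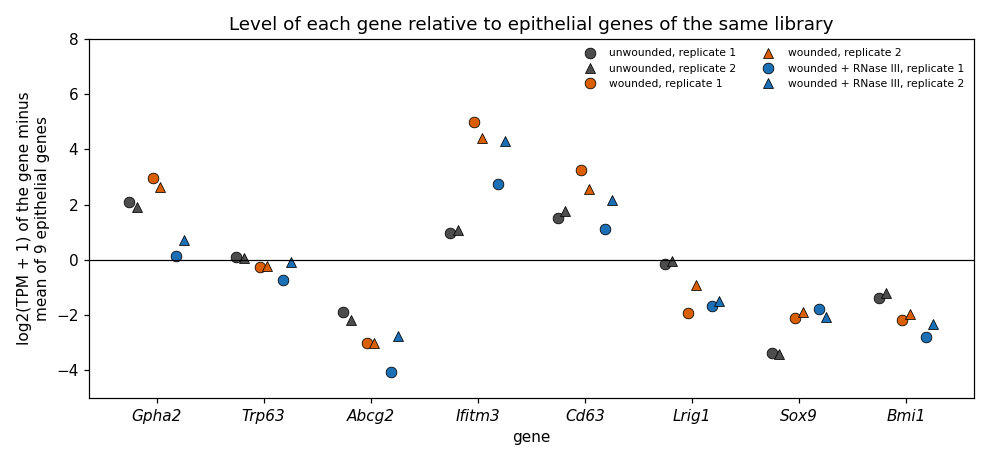
The log2(TPM + 1) of 8 genes minus the mean log2(TPM + 1) of 9 epithelial genes of the same library, with colours for groups, circles for replicate 1 and triangles for replicate 2. Gpha2 is lowest in both RNase III libraries (0.13 and 0.71), and the wounded and RNase III libraries of Sox9 overlap.

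Other limbal and basal genes, given from lists, went both ways. Of all genes 6.12% were called higher and 9.83% lower with the wound, and 4.72% and 4.58% in RNase III against unwounded corneas. Of 5 basal and limbal keratins Krt14 and Krt17 rose in both comparisons with unwounded corneas, Krt14 by 4.58 with the wound (adjusted p = 0.00230) and Krt17 by 3.98 (0.00342). Krt15, a limbal keratin in mouse, had 4003 and 3455 TPM without a wound and 806.5 and 2483 TPM after wounding. With RNase III it had 3013 and 945.4 TPM. Krt15 was lower in the other 4 libraries than in both unwounded ones, at differences of -1.39 and -1.14. Neither difference passed (limma adjusted p = 0.1815 and 0.2695). Over all genes 46.8% were lower in both wounded libraries than in both unwounded ones, and 39.7% in both RNase III libraries. Of 11 adhesion and surface genes 3 rose with the wound, the laminin receptor chains Itgb4 by 1.61 (0.0117) and Itga6 by 1.44 (0.0124), and Itgb1 by 0.95 (0.0403), which was named after its value was seen. The neurotrophin receptor gene Ngfr fell by 1.47 (0.0246) and the taurine transporter gene Slc6a6 by 1.97 (0.0191). Ngfr had 17.4 and 15.7 TPM without a wound, 4.41 and 6.32 TPM after wounding and 11.5 and 14.4 TPM after wounding with RNase III. In RNase III against unwounded corneas Itgb4, Itga6 and Itgb1 were higher, by 2.45 (0.00431), 2.06 (0.00680) and 1.18 (0.0340).

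Of 12 transcription factors 2 rose with the wound, Cebpb by 3.27 (adjusted p = 0.0192) and Cebpd, linked with quiet limbal cells in human, by 2.54 (0.0110), and 2 fell, Pax6, the eye field factor, by 2.04 (0.0310) and Klf5 by 0.84 (0.0352). Over all genes 6.12% were called higher and 9.83% lower with the wound, and 4.72% and 4.58% in RNase III against unwounded corneas. Cebpd had 9.04 and 6.03 TPM without a wound, 56.0 and 40.7 TPM after wounding and 20.2 and 29.0 TPM after wounding with RNase III. With RNase III against unwounded corneas Cebpb, Cebpd and Runx1 were higher, by 2.41, 1.59 and 1.97 (0.0426, 0.0334 and 0.0345), and Six3 was lower, at -2.17 (0.0457). Of 8 inhibitors of the cell cycle Cdkn1a rose with the wound by 0.88 (0.0291), and Cdkn1b, Cdkn1c and Gas1 fell by 1.19, 1.17 and 1.63 (0.0452, 0.0400 and 0.0492). With median-of-ratios scaling 3 inhibitors rose and 1 fell, so the balance of this list depends on the scaling. None of 8 proliferation genes passed with the wound, though 4 rose with median-of-ratios scaling, and Mcm2 and Pcna were higher in RNase III than in unwounded corneas, by 1.80 and 1.42 (0.0472 and 0.0347).

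Of 9 secreted or receptor genes of the Wnt and BMP pathways tested, 3 fell with the wound and none rose. Of all genes 9.83% were lower. Wnt6 fell from 13.8 and 13.1 TPM to 1.52 and 3.14 TPM, by 2.16 (adjusted p = 0.0209), Wnt2 by 1.68 (0.0352) and the Wnt inhibitor gene Sfrp1 by 1.04 (0.0391). Against unwounded corneas, RNase III corneas had lower Wnt6 and Wnt2, with differences of -2.34 and -1.64 (0.0253 and 0.0465), where 4.58% of all genes were lower. The summed stromal genes were lower in the same libraries, and their part in these differences was not tested. For RNase III against wounded corneas no gene of any of these lists passed; of the 11 adhesion and surface genes 6 had both RNase III libraries above both wounded ones and none below, with a median of 0.62 against 0.09 for all genes, of which 25.9% were above and 14.3% below. The 9 epithelial genes had 6 above and none below, with a median of 0.48, and their part in the adhesion genes' values was not tested. Without wounded replicate 1, or without either unwounded library, the counts with the wound in the transporter, adhesion, transcription factor, cell cycle, Wnt and p63 lists were all 0, while Krt14 and Krt17 still made 2 of 5.

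**Figure D5:**
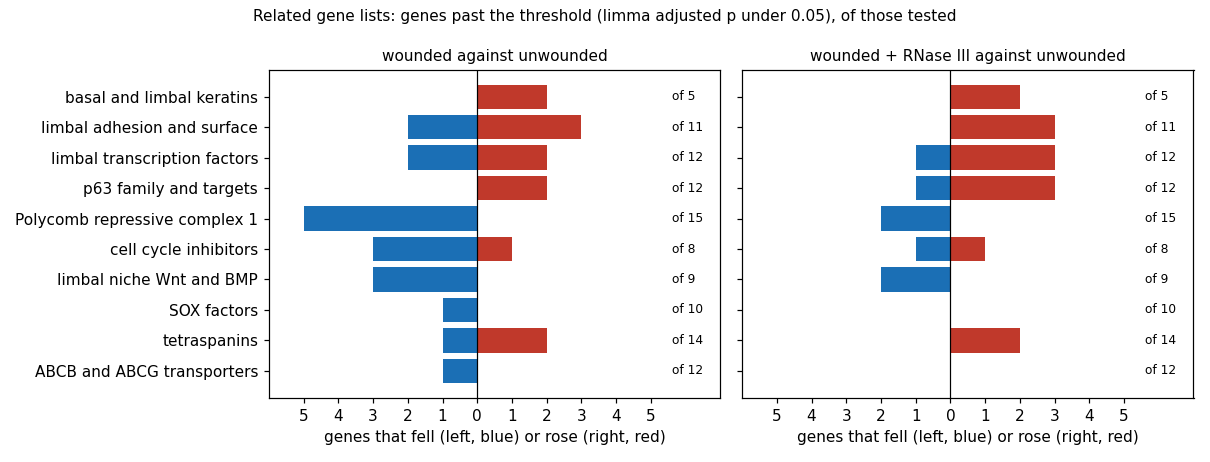
Number of genes past the threshold in 10 related lists for wounded and for RNase III corneas, each against unwounded ones, with genes that rose to the right and genes that fell to the left, and the number tested at the right edge. In the wound comparison 5 of 15 Polycomb genes and 3 of 9 Wnt and BMP genes fell and none of either list rose. Of all genes 9.83% were lower.

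By the pattern over the 6 libraries, 22 of 11289 genes had a Pearson correlation with Gpha2 of at least 0.95. The most alike were Camk1 (0.99), Zfp771 (0.98), Rab3il1 (0.97), Ift172 (0.97) and Trf, the transferrin gene (0.97). Trf had 153.4 and 184.4 TPM without a wound, 238.1 and 255.5 TPM after wounding and 55.7 and 64.2 TPM after wounding with RNase III, and Camk1, a calcium-dependent kinase gene, 29.9 and 29.5, 33.5 and 34.0, and 20.2 and 22.6 TPM. The other genes had 82 to 528 genes at 0.95 or more, the most for Lrig1. The pattern of Gpha2 includes the low RNase III values it was chosen for. Nothing is read from the genes most like Gpha2 or from their number. Those most like Lrig1 were Erich5, Stk35 and Slc6a20a, those most like Bmi1 Tmsb15b1, Ttc38 and Rab11fip4, and those most like Ifitm3 Nhp2, Ripk3 and Cct7. For Sox9 they were Haus3, Junb and Cwc15, for Trp63 Atxn1l and Bcl9, for Abcg2 Taldo1, Fn3krp and Mrm1, and for Cd63 Tmem126a, Dnajc17 and Arrb2. With 6 libraries in 3 groups such correlations describe the order of the libraries.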

How the data were processed

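RNA of 6 samples, 2 in each of 3 groups taken from the sample titles, was analysed. Expression came as TPM values, deposited by the authors in 1 table with 54446 Ensembl genes, with the same sum in every column. The submitters' processing notes name mm10, STAR, RSEM and DESeq2 without saying what each was used for, and their annotation is not given in the sources used here. Because TPM keeps no read depth, no counting interval can be given. A few abundant transcripts can lower all other values of a library. Symbols matched 54409 identifiers; positions are from GENCODE M21 (GRCm38). Promoter windows are RefSeq's (GRCm38.p6).

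Values were log2(TPM + 1), with genes of at least 1 TPM in at least 2 samples kept. A group means model over all 6 samples was fitted in limma 3.58.1 (R 4.3.3) with a mean-variance trend and two-sided tests, with 3.6 prior and 3 residual degrees of freedom. P-values were adjusted over all genes by Benjamini-Hochberg, and the fit was tested on simulated data. The smallest two-sided p of an exact permutation of 2 against 2 samples is 0.333. Members and lists were chosen with earlier results of these data known. Named were the 9 genes, up to 4 called genes per list (or the 2 most abundant where fewer than 2 passed; some of these are not reported here) and the genes most correlated with each member among those reaching 5 TPM. Krt15, Krt12, Phc2, Rnf2, Sox10, Trp73, the epithelial genes and the hormone genes were named or described further after their values were seen. One list entry, an older symbol of Nectin4, matched nothing. Alternatives were median-of-ratios scaling, no filter, no trend, a pseudocount of 0.1, only 2 groups in the fit, a block for the replicate number, and leaving out each library, where a lone sample is assumed to vary like the other groups.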

Additional observations from a re-analysis of the deposited data

How the results depend on the processing

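Without a filter 444 genes were called with the wound in place of 2352, and 1 of the 7 tested genes in place of 4; for RNase III against unwounded corneas these were 69 in place of 1371 and 0 in place of 2. Without a trend 2 of the 7 were called with the wound. With median-of-ratios scaling 1525 genes were higher and 1001 lower with the wound in place of 902 and 1450. With a pseudocount of 0.1, 1 gene was called between RNase III and wounded corneas in place of 0. Leaving out each library in turn gave 25 to 3242 genes and 0 to 6 of the 7 with the wound, 17 to 1283 genes and 0 to 3 of the 7 for RNase III against unwounded corneas, and 0 to 1 genes and 0 of the 7 for RNase III against wounded corneas. The lowest counts came without an unwounded library (25 and 26, or 23 and 17) or without wounded replicate 1 (71 with the wound). Every fit of this kind leaves out 1 sample, those with higher counts included, and the cause of the low counts was not tested.

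Signs turned in differences that had not been called. For RNase III against wounded corneas, scaling gave -0.0079 for Abcg2 and -0.11 for Bmi1, and leaving out each library gave -0.49 to 0.70 for Abcg2, -0.18 to 0.19 for Bmi1 (-0.15 without wounded replicate 1), -0.20 to 0.88 for Lrig1 and -1.38 to 0.040 for Ifitm3. For RNase III against unwounded corneas it gave -0.46 to 0.086 for Trp63 and -0.19 to 0.78 for Cd63. With the replicate number as a block 2032, 0 and 1449 genes and 4, 0 and 2 of the 7 tested genes were called. Nothing in the labels pairs samples by number, and deviations of same-numbered samples correlated at 0.146, 0.103 and -0.0469 between groups. Depth is unknown, so nothing can be said of genes listed at 0.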

Other observations

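Cdkn2a, the best known target that Bmi1 represses, had 5.96 TPM in RNase III replicate 1 and between 0.12 and 0.91 TPM in the other 5 libraries. Bmi1 itself had 13.4 TPM in that library and 17.6 TPM in RNase III replicate 2. In wounded replicate 1 Bmi1 was about as low, at 13.6 TPM, with Cdkn2a at 0.91 TPM. Both Cdkn2a and the next gene were chosen after their values were seen, and no explanation of either was tested.

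Itgam, an integrin chain of myeloid cells, fell with the wound by 2.05 (limma adjusted p = 0.00859), where 4 of the other leukocyte genes rose, with 72.6 and 77.8 TPM without a wound, 17.5 and 17.4 TPM after wounding and 23.1 and 32.0 TPM after wounding with RNase III. The common leukocyte gene Ptprc had 1.61 and 0.74 TPM, 13.4 and 7.04 TPM, and 1.23 and 5.53 TPM in the same order. Lyz2, a lysozyme gene of myeloid cells, had 101.6 and 51.1 TPM, 396.4 and 275.4 TPM, and 134.1 and 165.9 TPM. Adgre1, a macrophage gene, overlapped between wounded and unwounded corneas. In RNase III against unwounded corneas Adgre1 and Csf1r had differences of -0.49 and -0.72 without passing (limma adjusted p = 0.567 and 0.368). Itgam had the same sign (-1.43). The remaining leukocyte genes tested had the other sign. S100a8 differed by 6.65 (adjusted p = 0.0306), and S100a9, Lyz2 and Ptprc by 4.15, 1.04 and 0.84 without passing.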
